A study of Mus musculus with 18 samples.

Results

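The collagen chain genes encode the polypeptides that assemble into collagens. They were taken as every protein-coding gene of the count table whose symbol has the form Col, a number, a and a number. This gave 41 of the 25957 genes in the table, and 17 of the 41 had enough counts to be tested. The cells were C2C12, an established mouse myoblast line, grown in medium with 20% fetal bovine serum. Messenger RNA was measured by BRB-seq, a bulk method that barcodes each RNA sample early and reads tags near the 3′ ends of transcripts. There were 6 groups of 3 libraries, numbered as lots. The study compared enzymes that lift adherent cells from a dish.

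Cells washed in PBS stood at 37 °C under 200 µL of trypsin (0.25%) in 3 of the groups, and the time was 30 s in one, 3 min in another and 30 min in the last. Low-trypsin cells got that trypsin too, but it was removed immediately, with 3 min at 37 °C to follow. In the cold-protease group, washed cells were shaken in a cold-active protease for 5 min at 4 °C. The control had no enzyme: lysis buffer went straight onto the plate before scraping. The treated and control groups therefore differ in washing, incubation and harvest as well as in the enzyme, and these cannot be told apart. All comparisons with control share the same 3 control libraries. The labels do not say whether lots are separate cultures, so every p-value below rests on library-to-library spread, which may be technical.

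Collagen chains wind together into a triple helix that repeats a short unit, glycine followed by a pair of other residues. Fibrillar chains (types I, III and V) build the fibrils of connective tissue. Type IV chains form the network of the basement membrane that surrounds each muscle fibre, and type VI chains form beaded filaments at its outer face. Type XII is a fibril-associated collagen, which sits on the surface of fibrils. In muscle, much of the collagen is made by fibroblasts, although myoblast lines also express collagen genes.

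The glycine repeat was visible in the coding sequences of the genes that carry the results, shown because it is the feature that defines the family. Collagen names follow from this feature, so the runs are no independent check of a selection by name. Each line gives 8 consecutive repeats, the first of the gene's longest uninterrupted run, from the GENCODE M21 transcript (GRCm38, coding strand, 5′ to 3′), with glycine codons in capitals.
Col12a1: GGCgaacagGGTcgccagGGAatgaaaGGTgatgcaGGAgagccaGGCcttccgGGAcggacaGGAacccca
Col1a2: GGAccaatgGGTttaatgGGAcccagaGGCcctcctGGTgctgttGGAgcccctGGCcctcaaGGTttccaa
Col6a3: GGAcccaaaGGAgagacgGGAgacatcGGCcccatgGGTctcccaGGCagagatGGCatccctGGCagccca
Col1a1: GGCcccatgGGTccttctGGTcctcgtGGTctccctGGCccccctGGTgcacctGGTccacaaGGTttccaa
The longest uninterrupted run of such units was 32 repeats in Col12a1, 339 in Col1a2, 45 in Col6a3 and 338 in Col1a1. It was 28 to 344 repeats over the 41 genes, with a median of 61. All 41 had a run of at least 10, as did 36 of 16138 other coding genes in the table (0.223%), whose median run was 3. The search covered whole transcripts in any reading frame, so runs in the other genes need not be glycine codons. The 6 tested fibrillar genes had the long runs, between 337 and 344.

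The deposited counts summed to between 1490869 and 2480690 per library, over 13827 to 15468 detected genes. Levels are given below as CPM, counts scaled to a common library size with the trimmed mean of M-values (TMM CPM). The myoblast markers Myod1, Myf5, Des, Cdh15 and Itga7 were all detected, and the 6 myoblast markers summed to between 1207 and 1464 CPM in the 18 libraries. Pax7 was the exception and was too low to test. Of fibroblast markers, 7 of 8 were in the table and their sum was 1099.7 to 1318 CPM, nearly all of it Ly6a. Cd34 averaged 26.9 TMM CPM in control and 35.4 in 30 min libraries, and Dcn averaged 7.54 in control libraries. Thy1 and Lum were at or near 0, and Pdgfra and Pi16 were also too low to test. Ly6a, Cd34 and Dcn passed no test against control. Endothelial, leukocyte and adipocyte lists summed to at most 6.75 CPM. The epithelial list summed to 174 to 244 CPM, nearly all of it Krt14, with Epcam and Krt5 at or near 0. Since these are bulk libraries, fewer cells of a type and less RNA per cell cannot be told apart.

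The 41 genes held 151521 counts over the 18 libraries, and the 17 tested genes held 99.9% of them. The 24 genes that were not tested had totals of 1 to 35 counts over all 18 libraries, and no more than 6 counts in any library. These include the cartilage genes Col2a1 (1 count), Col11a1 (35 counts), Col11a2 (32 counts) and the type IX genes (1 to 8 counts). The tested genes had totals of at least 401 counts. All 17 had counts in all 18 libraries, and no count over the 17 speaks for the 24. Fibrillar chains held 70.3% of the collagen counts, network and basement membrane chains 15.8%, type VI chains 7.82%, Col18a1 and its untested relative Col15a1 3.76% and fibril-associated chains 2.02%. The 4 transmembrane chains together had 35 counts.

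Few collagen chain genes were called, and every call in a pairwise comparison was an increase. Those against control were all of Col12a1, Col1a2 or Col1a1, with the same control libraries in each. A gene was called when the edgeR quasi-likelihood test gave a Benjamini-Hochberg adjusted p under 0.05 over all 10075 genes tested. Against control, the higher ones were 1 of 17 after 30 s of trypsin, 1 after 3 min, 3 after 30 min, 2 after low trypsin and 2 after cold protease. The shares of all tested genes called higher were 3.24% at 30 s, 1.01% at 3 min, 2.07% at 30 min, 3.3% after low trypsin and 0.199% after cold protease. None of the 17 was called lower, where 3.7%, 2.95%, 2.61%, 1.9% and 0.467% of all tested genes were, in the same order. With 17 genes, a single call is 5.88% of them, so the 30 s count is near its background. For the same reason, no lower call among 17 genes is near those shares, and the direction is no result about the family. The cold-protease count stands against 20 genes called higher among all 10075, of which Col12a1 and Col1a2 are part. Across all 6 groups at once, the edgeR F test called 4 of the 17 (Col12a1, Col1a2, Col6a1 and Col6a3), where 11.5% of all tested genes were called.

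The median log2 fold change of the 17 genes against control was 0.03 at 30 s, 0.11 at 3 min, 0.21 at 30 min, 0.10 after low trypsin and 0.12 after cold protease. The medians of all tested genes lay between -0.0029 and 0.0091 in these comparisons. With 1 library left out, the members' median ranged from -0.03 to 0.05 at 30 s, 0.09 to 0.14 at 3 min, 0.16 to 0.23 at 30 min, 0.05 to 0.13 after low trypsin and 0.04 to 0.17 after cold protease. The 30 s median was -0.03 without 30 s replicate 3, -0.0041 without control replicate 3 and 0.05 without control replicate 1. The low-trypsin median was 0.05 without low-trypsin replicate 3 and 0.06 without control replicate 3. The cold-protease median was 0.04 without cold-protease replicate 2, 0.08 without cold-protease replicate 3 and 0.07 without control replicate 3. Positive fold changes numbered 9 of 17 at 30 s, 15 at 3 min, 14 at 30 min, 12 after low trypsin and 11 after cold protease. Of all tested genes, 50.4%, 52.1%, 50.9%, 49.4% and 50.0% were positive, in the same order. In the 30 min libraries 8 of 17 genes lay wholly above the control libraries and none wholly below. Of all 10075 tested genes, 9.29% lay wholly above and 10.2% wholly below control in the same comparison, and 2.07% were called higher. Collagen transcripts are long: the principal transcripts of the 17 had a median of 6119 nt, against 3026 nt for all tested genes. When a smooth trend of count on transcript length was removed from each library, the medians were 0.0099 at 30 s, 0.04 at 3 min, 0.15 at 30 min, 0.08 after low trypsin and 0.10 after cold protease. The medians of all tested genes were then 0.0121 at 30 s, 0.0198 at 3 min, 0.0137 at 30 min, 0.0038 after low trypsin and 0.0053 after cold protease, so at 30 s the members lay no higher than all genes. With that trend removed, positive fold changes numbered 9 of 17 at 30 s, 12 at 3 min, 12 at 30 min, 11 after low trypsin and 9 after cold protease.

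**Figure D1:**
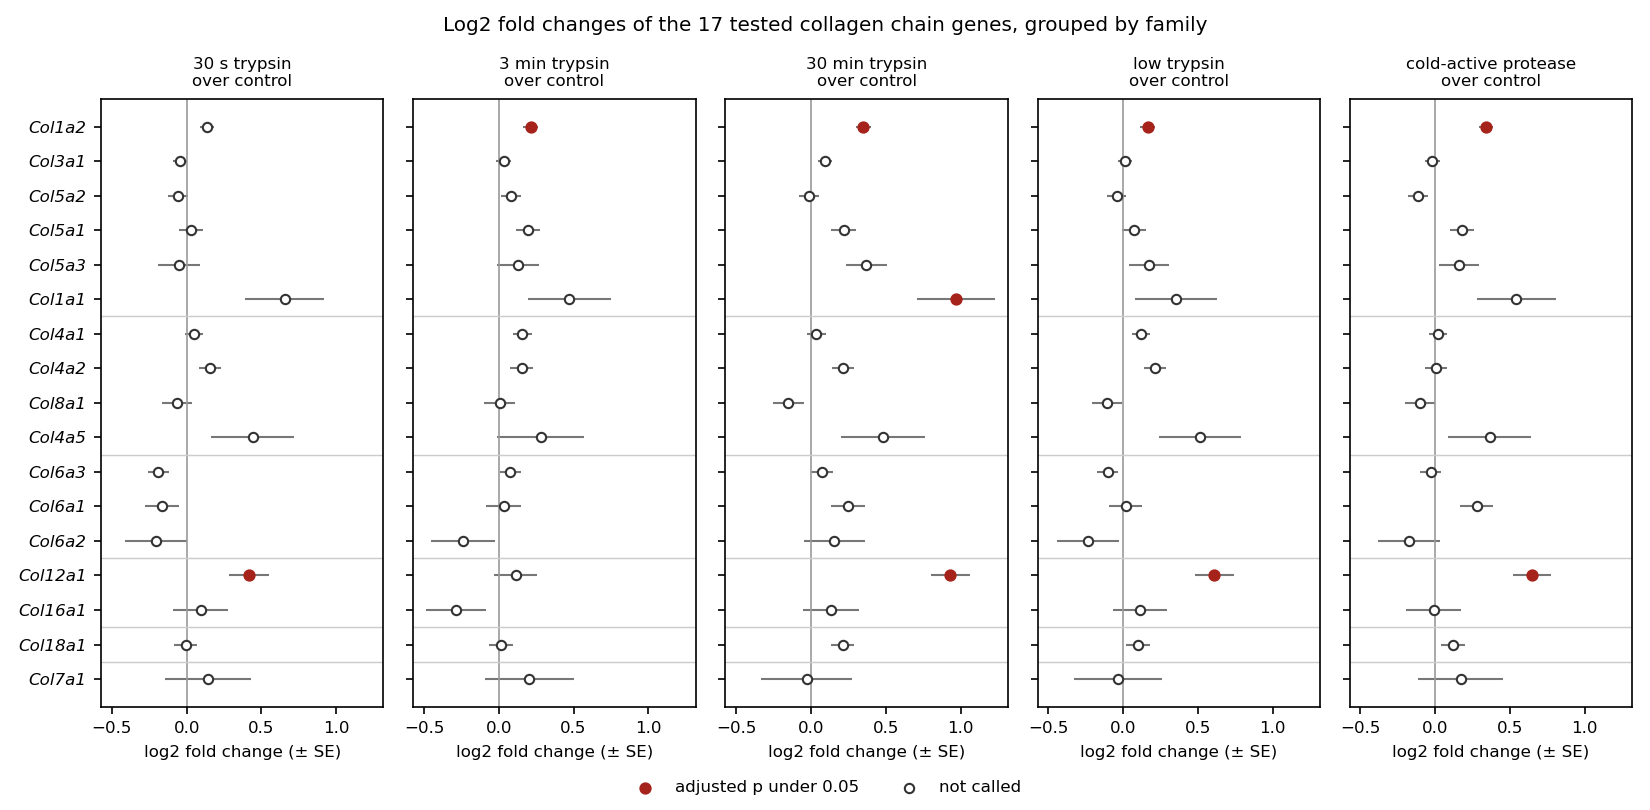
Log2 fold change over control (x axis, bars are standard errors) of the 17 tested collagen chain genes (y axis, grouped by family with grey lines between families) in 5 treatments. Filled points have an edgeR adjusted p under 0.05: Col12a1 in 4 panels, Col1a2 in 4 and Col1a1 at 30 min.

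Col12a1 (ENSMUSG00000032332, GRCm38 chr9:79598991-79718831, minus strand) encodes the single chain of type XII collagen, which decorates fibrils of tendon, ligament and muscle connective tissue. It was called higher in 4 of 5 treatments. Its mean was 59.4 TMM CPM at 30 s, 48.0 at 3 min and 85.0 at 30 min of trypsin. The difference between 30 s and 3 min did not pass (edgeR adjusted p = 0.382). Col12a1 had 60.8, 80.1 and 63.1 TMM CPM in low-trypsin libraries and 67.7, 67.5 and 74.0 in cold-protease libraries. Along the trypsin series it had 46.2, 44.0 and 43.4 in control, 58.2, 58.4 and 61.6 at 30 s, 49.5, 47.0 and 47.6 at 3 min, and 101, 77.6 and 76.3 at 30 min. All 15 treated libraries lay above all 3 control libraries, the 3 min ones only just.

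The 30 min trypsin libraries averaged 85.0 ± 14 TMM CPM and the control libraries 44.5 ± 1.5 (SD, n = 3 each), a log2 fold change of 0.93 ± 0.13 (SE; edgeR adjusted p = 4.95e-07). Replicate 1 of the 30 min group was the highest library, and without it the log2 fold change was 0.79 (edgeR adjusted p = 7.64e-05). After low trypsin the log2 fold change over control was 0.61 ± 0.13 (edgeR adjusted p = 0.00128). After cold protease it was 0.65 ± 0.13 (edgeR adjusted p = 0.00266). All 3 of these calls held when any 1 library was left out.

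At 30 s Col12a1 rose by 0.42 ± 0.13 on the log2 scale (edgeR adjusted p = 0.043). This call was lost without any 1 of the 6 libraries compared, with an adjusted p of up to 0.154, and under 4 other settings. At 3 min the log2 fold change was 0.11 ± 0.14 (edgeR adjusted p = 0.845), so no difference was detected there. The 3 min group was set directly against the others in the same fit, since a call in one treatment and none in another is no test of their difference.

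Against the 3 min libraries, Col12a1 was higher at 30 min by 0.82 ± 0.13 on the log2 scale (edgeR adjusted p = 7.42e-06), where it was the single collagen called and 2.83% of all genes were called higher. After cold protease it was higher than at 3 min by 0.53 ± 0.13 (edgeR adjusted p = 0.00674, background 2.84%). After low trypsin it was higher than at 3 min by 0.50 ± 0.13 (edgeR adjusted p = 0.0137, background 3.78%). The groups did not overlap in any of these 3 comparisons. No collagen was called lower against the 3 min libraries, where 1.2% (30 min), 0.864% (cold protease) and 0.576% (low trypsin) of all genes were. For so few collagen genes, that is near these shares. The low-trypsin call was lost without low-trypsin replicate 2, the one with 80.1 TMM CPM (log2 difference 0.37, adjusted p = 0.214), and without 3 min replicate 2. The 3 min libraries were lower than the 30 s ones in every library, with a log2 fold change of -0.31 ± 0.13 that did not pass (edgeR adjusted p = 0.382).

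**Figure D2:**
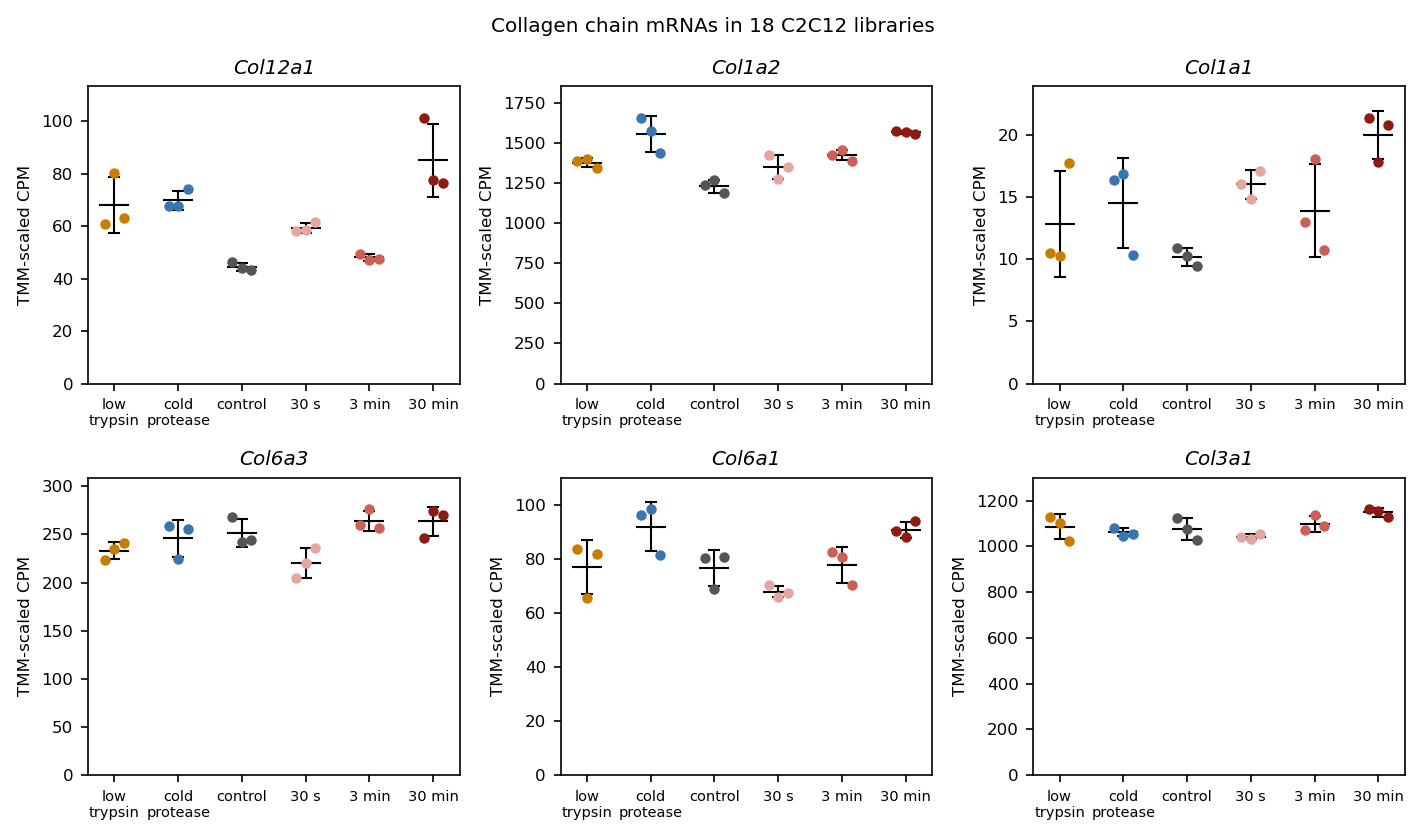
TMM CPM (y axes, from 0) of Col12a1, Col1a2, Col1a1, Col6a3, Col6a1 and Col3a1 in each library (points) of 6 groups (x axes), with the group mean and SD (bars). Col12a1 is high in the low-trypsin, cold-protease and 30 min groups and near control at 3 min, while Col3a1 stays between 1025 and 1162 in all 18 libraries.

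Type I collagen is the main fibrillar collagen of connective tissue, a trimer of chains from Col1a1 and Col1a2. Col1a2 (ENSMUSG00000029661, GRCm38 chr6:4504814-4541544, plus strand) rose in 4 of 5 treatments, by modest amounts that its depth of 48587 counts resolved. Col1a2 had 1389, 1399 and 1346 TMM CPM in low-trypsin libraries and 1656, 1574 and 1437 in cold-protease libraries. In the trypsin series it had 1235, 1269 and 1187 in control, 1425, 1275 and 1352 at 30 s, 1428, 1456 and 1389.9 at 3 min, and 1575, 1569 and 1557 at 30 min. All 15 treated libraries again lay above all 3 control libraries.

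The log2 fold change of Col1a2 over control was 0.14 ± 0.05 at 30 s (edgeR adjusted p = 0.0981), 0.21 ± 0.05 at 3 min (adjusted p = 0.00355) and 0.35 ± 0.05 at 30 min (adjusted p = 7.80e-07). After cold protease it was 0.34 ± 0.05 (edgeR adjusted p = 1.29e-05). After low trypsin it was 0.16 ± 0.05 (edgeR adjusted p = 0.0365). The 30 min and cold-protease calls held without any 1 library. The 3 min call was lost without control replicate 3 (adjusted p = 0.0535) and without 3 min replicate 2. The low-trypsin call was lost without control replicate 1 or 3 or low-trypsin replicate 1 or 2, with adjusted p-values of 0.0800 to 0.213. No difference of Col1a2 between neighbouring times passed: the 30 min libraries exceeded the 3 min ones by 0.14 ± 0.05 (edgeR adjusted p = 0.127).

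Col1a1 (ENSMUSG00000001506, GRCm38 chr11:94936224-94953042, plus strand) was counted far less often, with 500 counts over 18 libraries and 16 to 41 per library. It had 10.5, 10.3 and 17.8 TMM CPM in low-trypsin libraries and 16.3, 16.9 and 10.3 in cold-protease libraries. The trypsin series had 10.9, 10.3 and 9.43 in control, 16.1, 14.9 and 17.1 at 30 s, 13, 18 and 10.7 at 3 min, and 21.4, 17.8 and 20.8 at 30 min. The 30 s and 30 min libraries lay wholly above control, and the other groups overlapped it. At 30 min Col1a1 rose by 0.97 ± 0.26 on the log2 scale (edgeR adjusted p = 0.0175), a call lost with DESeq2 (adjusted p = 0.0506). It was also lost without control replicate 2 or 3 or 30 min replicate 1 or 3, with adjusted p-values of 0.0559 to 0.0819. At 30 s the log2 fold change was 0.66 ± 0.26 (edgeR adjusted p = 0.156), which at this depth could not be told from control.

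The type III gene Col3a1 (GRCm38 chr1:45311538-45349706, plus strand), whose product shares fibrils with type I, passed no test. Col3a1 had 1129.7, 1104 and 1025 TMM CPM in low-trypsin libraries and 1081, 1048 and 1055 in cold-protease libraries. The series had 1123, 1078 and 1028 in control, 1039, 1033 and 1054 at 30 s, 1071, 1138 and 1088 at 3 min, and 1162, 1156 and 1127 at 30 min. Only the 30 min libraries were clear of control, all above it. Col3a1 averaged 1149 ± 19 TMM CPM at 30 min and 1076 ± 48 in control (SD, n = 3 each), and its log2 fold changes against control lay between -0.05 and 0.09. The type V chains help start fibrils and set their width. Col5a2 (GRCm38 chr1:45374321-45503282, minus strand) had 339.7, 342 and 349 TMM CPM in low-trypsin libraries and 355, 307 and 320.3 in cold-protease libraries. Its series was 355, 345 and 362 in control, 304, 358 and 359 at 30 s, 352, 403 and 367 at 3 min, and 358, 335 and 357 at 30 min. Every treated group of Col5a2 overlapped control, with log2 fold changes of -0.11 to 0.08, none called. Col5a1 had log2 fold changes of 0.03 to 0.22 and Col5a3 of -0.05 to 0.37, with the highest of each at 30 min, and neither was called (lowest edgeR adjusted p 0.130 for Col5a1 and 0.116 for Col5a3).

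Type VI collagen is assembled from one chain each of Col6a1, Col6a2 and Col6a3. None of its genes was called against control. Col6a3 (ENSMUSG00000048126, GRCm38 chr1:90765923-90843971, minus strand) had 224, 235 and 241 TMM CPM in low-trypsin libraries and 259, 224 and 255 in cold-protease libraries. Its series ran 268, 242 and 244 in control, 205, 219.8 and 236 at 30 s, 259.7, 276 and 257 at 3 min, and 246, 275 and 269.8 at 30 min. The 30 s and low-trypsin libraries lay wholly below control, with log2 fold changes of -0.19 ± 0.07 (edgeR adjusted p = 0.119) and -0.10 ± 0.07 (adjusted p = 0.543) that did not pass.

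The 3 min libraries exceeded the 30 s ones in Col6a3 by 0.27 ± 0.07 on the log2 scale (edgeR adjusted p = 0.0345), the single collagen called there, where 0.476% of all genes were called higher and 1.46% lower. Without replicate 1 of the 30 s group, the lowest library, the adjusted p was 0.318. It was 0.110 without 30 s replicate 2 and 0.0601 to 0.223 without any 1 of the 3 min libraries, and the call was also lost with DESeq2 (0.0707) and with the length trend removed (0.166). The F test over all 6 groups called Col6a3 (edgeR adjusted p = 0.0314), but not with the length trend removed (0.107) nor in DESeq2's likelihood ratio test (0.0657), and it was lost in 6 of 18 cases with a library left out, with an adjusted p of up to 0.188 without 30 s replicate 1.

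Col6a1 (ENSMUSG00000001119, GRCm38 chr10:76708792-76726168, minus strand) had 83.7, 65.5 and 81.8 TMM CPM in low-trypsin libraries and 96.2, 98.4 and 81.5 in cold-protease libraries. Along the series it had 80.2, 68.9 and 80.6 in control, 70.4, 66.1 and 67.5 at 30 s, 82.4, 80.9 and 70.4 at 3 min, and 90.5, 88.1 and 93.9 at 30 min. The cold-protease and 30 min libraries lay wholly above control. Col6a1 was called over all 6 groups (edgeR F test, adjusted p = 0.0188; DESeq2 0.0521; 0.0572 to 0.0775 without 30 s replicate 2, cold-protease replicate 1 or cold-protease replicate 2), and in none of the 9 pairwise comparisons, the log2 fold change over control being 0.28 ± 0.11 after cold protease (edgeR adjusted p = 0.370). Col6a2, with 708 counts, was between 14.9 and 27.3 TMM CPM and passed no test.

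The type IV genes Col4a1 (GRCm38 chr8:11198423-11312826, minus strand) and Col4a2 (GRCm38 chr8:11312805-11449287, plus strand) stand head to head and encode the chains of the common basement membrane network. Their first exons share 22 nt on opposite strands. That stretch lies at the 5′ starts of both genes, whereas the tags were read near 3′ ends. The labels do not say whether counting used strand, so how any reads from it were assigned is not known. Col4a1 had 332, 329 and 327 TMM CPM in low-trypsin libraries and 309, 317 and 293 in cold-protease libraries. Along the series it had 305, 291 and 313 in control, 314, 311 and 316 at 30 s, 333.3, 325 and 356 at 3 min, and 317, 294 and 322 at 30 min. The low-trypsin and 3 min libraries of Col4a1 lay wholly above control, with log2 fold changes of 0.12 ± 0.06 (edgeR adjusted p = 0.337) and 0.16 ± 0.06 (adjusted p = 0.204). Col4a2 had 255, 243 and 245 TMM CPM in low-trypsin libraries and 227, 206 and 207 in cold-protease libraries. Its series was 216, 201 and 223 in control, 233, 239 and 239 at 30 s, 224, 228 and 261 at 3 min, and 220.0, 260.5 and 259.7 at 30 min. The low-trypsin, 30 s and 3 min libraries of Col4a2 lay wholly above control. After low trypsin its log2 fold change of 0.21 ± 0.07 did not pass (edgeR adjusted p = 0.0787), nor did the same value at 30 min (0.21 ± 0.07, adjusted p = 0.0931). In cold-protease libraries both genes were near control, with log2 fold changes of 0.02 ± 0.06 for Col4a1 and 0.00 ± 0.07 for Col4a2.

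The other tested chains passed no test. Col8a1, a short network-forming chain, had log2 fold changes of -0.15 to 0.00 against control. Col18a1, whose cleaved end is endostatin, lay wholly above control at 30 min, at 177 to 192 against 151 to 172 TMM CPM (log2 fold change 0.21, edgeR adjusted p = 0.131). The fibril-associated Col16a1 ranged from 18.4 to 32.1 TMM CPM, the type IV chain Col4a5 from 6.60 to 17.8 and Col7a1, the anchoring fibril chain of skin, from 7.58 to 15.1. Their lowest edgeR adjusted p against control was 0.371.

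As a share of all counts, the 41 genes held 0.433 ± 0.0050% in low-trypsin and 0.444 ± 0.017% in cold-protease libraries (SD, n = 3 each). Along the series the share was 0.407 ± 0.012% in control, 0.430 ± 0.0086% at 30 s, 0.458 ± 0.011% at 3 min and 0.473 ± 0.0068% at 30 min. The highest control library stood at 0.420%, and the lowest treated one, a 30 s library, at 0.424%. With library sizes scaled by TMM the 30 s libraries overlapped control. Control replicate 1 then stood at 0.427%, and 30 s replicates 1 and 2 at 0.424% and 0.417%. Without Col1a2 the means were 0.297% after low trypsin, 0.291% after cold protease, 0.287% in control, 0.294% at 30 s, 0.314% at 3 min and 0.317% at 30 min. Col1a2 alone was 34.4 ± 1.4% of collagen counts after cold protease and 33.0 ± 0.25% at 30 min, against 29.5 ± 1.0% in control. These shares are sums over the chosen genes and carry no test.

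**Figure D3:**
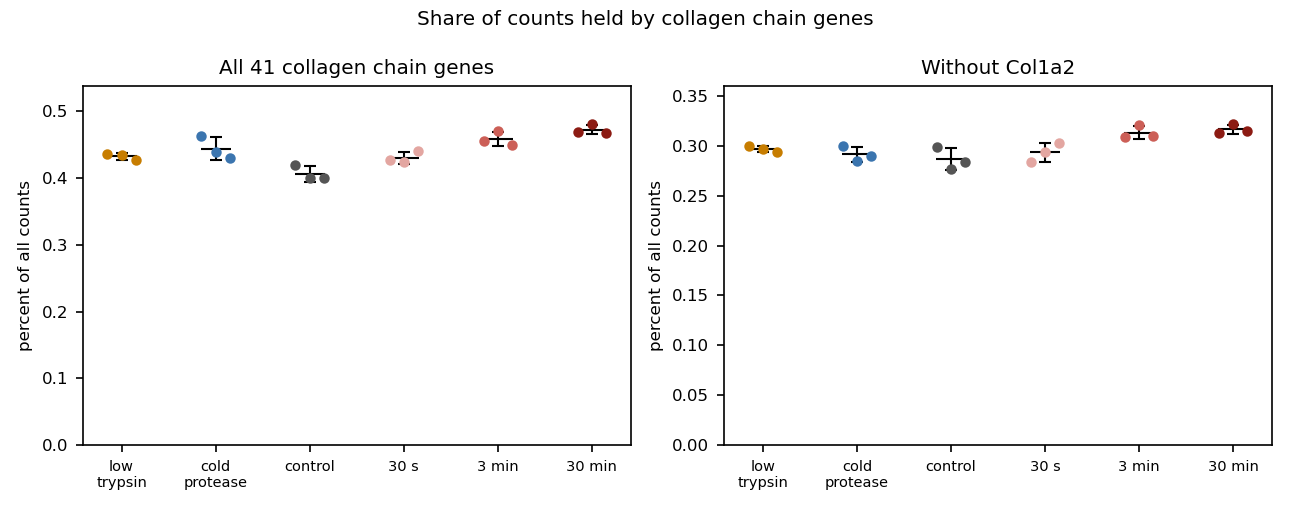
Percent of all counts (y axes, from 0) held by the 41 collagen chain genes (left) and by the same genes without Col1a2 (right) in each library (points) of 6 groups (x axes), with mean and SD (bars). On the left every treated library is above the highest control library at 0.420%; on the right the cold-protease mean of 0.291% is near the control mean of 0.287%.

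Of the 25 genes listed for folding and modification of collagen in the endoplasmic reticulum, 21 were tested. At 30 s 1 of them was called higher and 1 lower, where 3.24% of all genes were called higher and 3.7% lower. At 30 min 1 was lower (2.61% of all genes), after low trypsin 1 was higher (3.3%), and at 3 min and after cold protease none was called. With 21 genes, such counts are near the background. Serpinh1 (HSP47), the collagen-specific chaperone, had 576, 597 and 606 TMM CPM in 30 min libraries, against 725, 692 and 676 in control libraries. It fell at 30 min by 0.23 ± 0.05 on the log2 scale (edgeR adjusted p = 0.00274), in the group where Col1a2, Col12a1 and Col1a1 rose. At 30 s it fell by 0.19 ± 0.05 (edgeR adjusted p = 0.0132), a call lost without control replicate 1 (adjusted p = 0.0832) or 30 s replicate 2 (adjusted p = 0.103).

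Plod2, a lysyl hydroxylase that prepares cross-link sites, had 60.3, 61.2 and 51.9 TMM CPM in low-trypsin libraries, 59.5, 50.7 and 53.0 in 30 s libraries and 39.8, 41 and 33.5 in control libraries. It rose after low trypsin by 0.60 ± 0.13 (edgeR adjusted p = 0.00203) and at 30 s by 0.52 ± 0.14 (edgeR adjusted p = 0.0067). The 30 s call was lost without control replicate 3 (adjusted p = 0.0994) or 30 s replicate 1 (adjusted p = 0.0890). The cold-protease libraries, at 29.9, 32.5 and 29.8, were all below control, with a log2 fold change of -0.30 ± 0.15 that did not pass (edgeR adjusted p = 0.570). Against the 3 min libraries, Plod2 fell after cold protease by 0.57 ± 0.15 (edgeR adjusted p = 0.0111), as did Mia2, which helps load large cargo for export, by 0.49 ± 0.14 (edgeR adjusted p = 0.0365). They were 2 of 21 tested genes of the list, where 0.864% of all genes were called lower. No check with a library left out is given for either. The list median lay between -0.07 and 0.02 in the 5 comparisons with control.

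None of the 10 tested genes of procollagen cleavage and cross-linking (13 listed) was called against control. Loxl2, a lysyl oxidase that joins chains, was lower after cold protease than at 3 min, at 12.6 ± 3.76 against 23.5 ± 2.91 TMM CPM (log2 fold change -0.88 ± 0.25, edgeR adjusted p = 0.0312). It was the 1 gene of these 10 called there, where 0.864% of all genes were called lower. The call rests on 18, 38 and 24 counts against 38, 39 and 40, and no check with a library left out is given. Of 10 tested fibril partners (12 listed), 3 rose after low trypsin, 1 at 30 s, 2 at 3 min and 2 at 30 min, where 3.3%, 3.24%, 1.01% and 2.07% of all genes did. None fell, none was called after cold protease, and 1 of 10 at 30 s is near its background. Nid1, which links laminin to type IV collagen, rose after low trypsin by 0.31 ± 0.07 (edgeR adjusted p = 0.0034; 0.0646 without control replicate 1). The glycoproteins Tnc and Thbs1 rose there by 0.54 ± 0.13 and 0.40 ± 0.06 (edgeR adjusted p = 0.00302 and 2.75e-06). Tnc also rose at 3 min (0.60 ± 0.13) and at 30 min (0.53 ± 0.13), where the call was lost without control replicate 2 (adjusted p = 0.0586). Thbs1 rose at 30 s (0.26 ± 0.06) and at 3 min (0.22 ± 0.06). Its 3 min call was lost with the length trend removed (adjusted p = 0.0750), without control replicate 3 (0.134) and without 3 min replicate 2 (0.174). Fibronectin (Fn1), which guides fibril assembly, rose at 30 min by 0.32 ± 0.05 (edgeR adjusted p = 1.01e-05).

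Of 9 tested receptors and breakdown genes (16 listed), 1 fell at 30 s and 2 after low trypsin, where 3.7% and 1.9% of all genes did, and 1 rose at 30 min, where 2.07% did. Timp1, an inhibitor of matrix proteases, fell at 30 s by 0.27 ± 0.05 (edgeR adjusted p = 0.000141) and after low trypsin by 0.21 ± 0.05 (edgeR adjusted p = 0.0062; 0.0744 without low-trypsin replicate 1). With the length trend removed, the 30 s value of Timp1 was -0.08 and was not called (adjusted p = 0.438). Mmp14, a membrane-bound collagenase, fell after low trypsin by 0.22 ± 0.07 (edgeR adjusted p = 0.0411). That call was lost without control replicate 1 or 3 or low-trypsin replicate 2 or 3, with adjusted p-values of 0.135 to 0.236. Mmp2, a gelatinase, was called higher at 30 min at 0.39 ± 0.12 (edgeR adjusted p = 0.0485). It was lost without any 1 control library or 30 min replicate 1 or 2, with adjusted p-values of 0.103 to 0.302.

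Of 12 tested regulators (13 listed), 2 rose at 30 s, 1 at 3 min and 1 after low trypsin, where 3.24%, 1.01% and 3.3% of all genes did. Ccn2, a matricellular protein that promotes collagen synthesis, had 149, 181 and 177 TMM CPM in low-trypsin libraries, 138, 136 and 145 in 30 s libraries and 75.7, 74.2 and 96.6 in control libraries. It rose by 1.03 ± 0.10 after low trypsin (edgeR adjusted p = 6.66e-11) and by 0.75 ± 0.11 at 30 s (edgeR adjusted p = 2.40e-07). At 30 min it overlapped control, at 97.4, 72.9 and 95.2 TMM CPM (log2 fold change 0.09 ± 0.12, edgeR adjusted p = 0.789). Skil, a repressor of SMAD signalling, rose at 30 s by 0.67 ± 0.13 and at 3 min by 0.51 ± 0.13 (edgeR adjusted p = 0.000123 and 0.0128). Its 3 min call was lost without control replicate 2 or 3 or 3 min replicate 2 or 3, with adjusted p-values of 0.0547 to 0.216. Ccn2 fold changes were highest at 30 s and after low trypsin, and Col1a2 fold changes at 30 min and after cold protease. A relation between these genes was not tested.

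**Figure D4:**
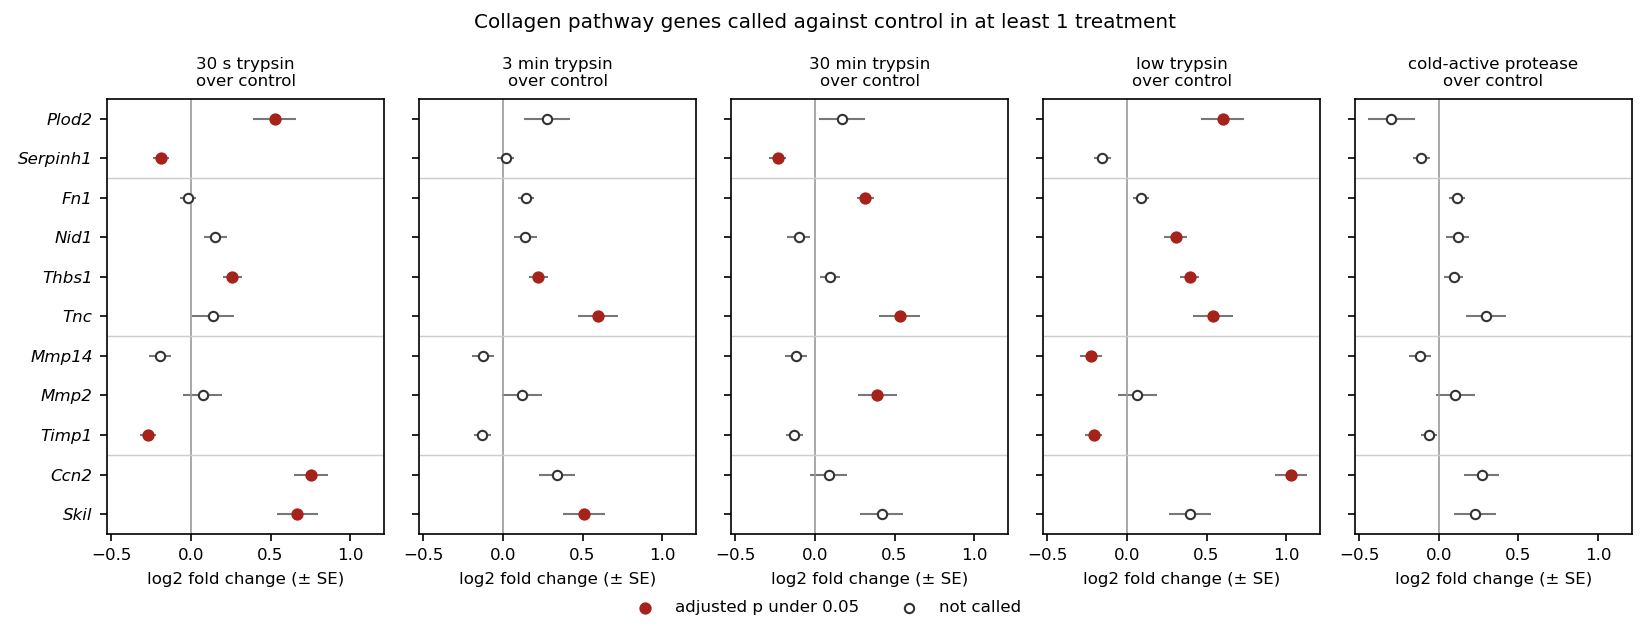
Log2 fold change over control (x axis, bars are standard errors) of the collagen pathway genes called in at least 1 treatment (y axis, grouped by role with grey lines between roles) in 5 treatments. Filled points have an edgeR adjusted p under 0.05; Ccn2 is filled at 30 s and after low trypsin, Serpinh1 is filled and negative at 30 s and 30 min, and the cold-protease panel has no filled point.

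Of 5 tested myoblast markers Myf5 alone was called against control, and of 6 tested differentiation markers Acta1 alone. Both were chosen after their values were seen. Myf5, a myogenic transcription factor, averaged 123 ± 14 TMM CPM at 30 min and 72.1 ± 19.2 in control (SD, n = 3 each), a log2 fold change of 0.79 ± 0.12 (edgeR adjusted p = 4.08e-06). It also rose at 30 s by 0.71 ± 0.12 (edgeR adjusted p = 1.40e-05) and after low trypsin by 0.39 ± 0.12 (edgeR adjusted p = 0.0481). The low-trypsin libraries overlapped control in Myf5. Acta1, skeletal muscle actin, fell at 30 min by 0.48 ± 0.12 (edgeR adjusted p = 0.00911). No check with a library left out is given for Myf5 or Acta1. The other tested differentiation markers were not called at 30 min. Their log2 fold changes were -0.34 for Mymk, -0.23 for Tnnt3, -0.22 for Myh3, 0.0075 for Myog and 0.14 for Ttn. The part of these markers in the collagen results was not tested.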

How the data were processed

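The authors deposited a table of whole-number read counts per gene for 18 libraries, and these counts were used as deposited. Per the submitters' processing notes, the build was GRCm38 and the tools included HISAT2 2.1.0, UMI-tools 1.0.1, featureCounts 2.0.1, cutadapt 2.6, DESeq2 1.28.1 and Trim Galore 0.6.6. No source used here gives their settings or strand. The other 2 deposited tables were not used here.

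Counts were fitted in edgeR 4.0.16 (R 4.3.3) with TMM scaling, filtering by expression per group and the quasi-likelihood F test, all 18 libraries in 1 fit. A total of 10075 genes were tested (common coefficient of biological variation 6.08%), with Benjamini-Hochberg adjustment over all of them and a threshold of 0.05. An exact permutation of 3 against 3 libraries cannot go below p = 0.1, so single values carry no such test. DESeq2 1.42.0, other scalings, other filters, removal of the length trend, a replicate block and leaving out each library were alternatives.

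Samples were grouped by their labels. Libraries with the same lot number did not deviate together, so lots were not used as pairs. Members and gene lists were chosen with earlier results of these data known. Values in every library are given for collagen genes called in any comparison or in the F test, for Col12a1, Col1a2 and Col6a3, and for the 6 with the highest mean CPM. Of pathway genes, those called against control are named. Those named only from comparisons between treatments (Mia2, Loxl2) and the markers Myf5 and Acta1 were chosen after their values were seen. Figures were drawn with matplotlib 3.10.9.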

Additional observations from a re-analysis of the deposited data

Results flagged for a closer look

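Col12a1 differed between treatments, as tested directly in the same edgeR fit. It was higher than in the 3 min trypsin libraries by 0.82 on the log2 scale in the 30 min libraries, by 0.53 in the cold-protease libraries and by 0.50 in the low-trypsin libraries. Col6a3 was higher in the 3 min libraries than in the 30 s libraries by 0.27 on the log2 scale. Dropping 1 library removed this Col6a3 call in 5 of 6 fits (highest edgeR adjusted p 0.318). The Col12a1 call for low trypsin over 3 min was removed in 2 of 6 such fits (highest edgeR adjusted p 0.214). Its 30 min and cold-protease calls over 3 min held in every such fit. Apart from these fits, groups of 3 libraries were too small for a check of single libraries that stand far from the others.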

How the results depend on the processing

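Member counts kept within 1.5 times of the reported ones in 118 of 151 recomputed values. The 30 s count (1) was 0 with no low-count filter, under the replicate block, with the length trend removed and with DESeq2, and 0 to 0 when a library was left out. The low-trypsin count (2) was 1 with no filter, with the length trend removed and in a fit of only the groups compared, and 1 to 2 when a library was left out. The count for 3 min over 30 s (1) was 0 with no filter, with the length trend removed and with DESeq2, and 0 to 1 with a library left out. Over all 6 groups the count (4) was 2 with DESeq2 and 2 to 5 with a library left out. With a library left out, the 3 min count was 0 to 1, that of low trypsin over 3 min 0 to 1 and that of cold protease over 3 min 1 to 2. The replicate block left Col12a1 at 30 s with an edgeR adjusted p of 0.0521 and changed no other call of a collagen gene. Same-numbered libraries correlated between -0.060 and 0.071, and 7 of 18 correlated best with their own number. The cause of these changes was not tested, except that leaving out a library leaves fewer samples.

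With nuclear protein-coding counts as the denominator, the collagen share was 0.471% after low trypsin, 0.481% after cold protease, 0.438% in control, 0.465% at 30 s, 0.497% at 3 min and 0.511% at 30 min. With the TMM effective size it was 0.440% after low trypsin. Control replicate 1 (0.427%) then lay above 30 s replicates 1 (0.424%) and 2 (0.417%).

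Signs turned only for log2 fold changes that were not called. With upper-quartile scaling Col4a2 (3 min over 30 s) was 0.0067. With the length trend removed the values over control were -0.00092 for Col3a1 at 3 min, -0.0099 for Col6a3 and -0.014 for Col4a1 at 30 min, -0.0097 for Col3a1 after low trypsin, and -0.011 for Col4a1 and -0.024 for Col4a2 after cold protease. With a library left out, cold protease over control gave -0.0719 to 0.0367 for Col6a3, -0.0518 to 0.0111 for Col3a1, -0.0122 to 0.047 for Col4a1 and -0.0454 to 0.0391 for Col4a2. Trypsin for 3 min over control gave -0.0416 to 0.0876 for Col6a1 and -0.00166 to 0.0618 for Col3a1. Low trypsin over control gave -0.0591 to 0.113 for Col6a1 and -0.0192 to 0.0538 for Col3a1. Over control, 30 min gave -0.0347 to 0.0153 for Col5a2 and 30 s gave -0.105 to 0.0117 for Col5a2. Low trypsin over 3 min gave -0.0785 to 0.0806 for Col6a1, -0.439 to 0.13 for Col1a1, -0.0469 to 0.0226 for Col3a1 and -0.0581 to 0.00832 for Col4a1. The 3 min over the 30 s libraries gave -0.0717 to 0.0399 for Col4a2, 30 min over 3 min gave -0.0282 to 0.0482 for Col6a3, and cold protease over 3 min gave -0.0636 to 0.32 for Col1a1. Depth limits the genes with few counts, Col1a1, Col4a5, Col6a2 and Col7a1 above all.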

Other observations

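The genes of the type I collagen chains had very different numbers of counts: 500 for Col1a1 and 48587 for Col1a2 over the 18 libraries. Their principal transcripts are 5930 and 5348 nt long. Tags near 3′ ends are counted from one site per transcript, and these counts were not used to compare the levels of the chains.

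Of the 17 tested genes, 5 share exon bases with another annotated gene. The longest stretches are 141 nt in Col3a1 (with Gm47302, same strand), 113 nt in Col5a1 (with Gm13372, opposite strand), 43 nt in Col4a2 (with Gm15419, opposite strand), 36 nt in Col7a1 (with Mir711) and 22 nt between Col4a1 and Col4a2. Col12a1, Col1a2, Col1a1, Col6a3 and Col6a1 share none.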
